A study of Mus musculus with 8 samples.

Results

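The genes described here encode β and γ subunits of the GABA-A receptor (Gabrb1, Gabrb2, Gabrg1 and Gabrg3), α and β subunits of the glycine receptor (Glra2, Glra3 and Glrb), and gephyrin (Gphn). These 8 genes were chosen by family, but with earlier results of these data known, and further genes of these families are not reported here. All 8 were found by symbol among the 14353 genes with values and passed the filter on low values (over 1 CPM, the read count scaled to library size, in at least 3 libraries), which 14249 genes passed. RNA came from the ventral pallidum (VP) of untreated adult mice that, by the labels, were homozygous for VGluT2-Cre and heterozygous for the Rpl22 (RiboTag) allele. In these mice Cre, driven from the Slc17a6 (vGluT2) locus, turns on a hemagglutinin tag on the ribosomal protein Rpl22, which then stays on in any cell that has expressed Cre. Translating ribosome affinity purification (TRAP) then collects tagged ribosomes with the mRNA they carry, so that the TRAP fraction is meant to represent glutamatergic VP neurons (VPGlu), while INPUT is labelled as RNA of all neurons and glia. Both fractions carried the same alleles and no library came from mice without Cre. The mice were 9 to 12 weeks old in pool VP1.6 and 10 to 16 weeks old in the other pools. The 38 mice (15 male, 23 female) were pooled by 7 to 11, and from each of the 4 pools both fractions were sequenced as 1 library, so n = 4 for TRAP and for INPUT. Values by pool are given throughout in the order VP1.6, VP2.2, VP2.6, VP2.11 (pool order). The study's methods describe INPUT as taken before the beads were added but name an unbound fraction as the one sequenced. They also give more samples, more mice and a lower upper age than the labels, and the labels were followed here.

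GABA-A and glycine receptors are chloride channels built of several subunits and carry fast inhibition. In the GABA-A receptor, β subunits form the GABA binding sites together with α subunits and are needed for the channel to assemble and reach the surface, and γ subunits bring the receptor to synapses and, with α subunits, form the benzodiazepine site. Glycine receptors combine α subunits, which can form channels alone, with the β subunit Glrb, which binds gephyrin. Gephyrin is the scaffold that holds glycine receptors and many GABA-A receptors under inhibitory terminals, and in all tissues it also catalyses the last steps of molybdenum cofactor synthesis. The VP receives dense GABAergic input from the striatum, so these genes bear on how VPGlu neurons are inhibited.

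The values are log2 CPM as deposited, and log2 fold changes are TRAP minus INPUT. The limma fit over all genes tested was read with the fraction alone and again with the pool added as a block (the blocked fit), because both libraries of a pool came from the same homogenate. The fold change is identical in both. Libraries of 1 pool deviated in opposite directions from the means of their fractions (correlation across genes from -0.745 to -0.495 in the 4 pools), and the standard error with the block was 1.38 times that without it at the median over genes. Whether a pool term was taken out of the values before deposit is not known. If one was, the level of a single library depends on its partner library, and p-values without the block are too small. The fit with the block is therefore the stricter reading, and a gene is called here where its Benjamini-Hochberg adjusted p was under 0.05. In a bulk sample a gene can be higher because more cells express it or because each cell holds more of its mRNA, and these cannot be told apart.

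The labelled cell type was checked on marker genes. The 3 glutamatergic markers summed to 202 CPM in TRAP and 50.5 in INPUT, with 2 of 3 higher in both fits and 0 lower. Slc17a6, which encodes vGluT2, averaged 143 ± 13.6 CPM in TRAP and 25.9 ± 10.3 in INPUT (SD, n = 4), a log2 fold change of 2.55 (limma adjusted p = 8.8e-05, and 7.3e-06 with the block). Slc32a1, the vesicular GABA transporter, was lower in TRAP, at 10.9 ± 3.71 against 25.6 ± 6.22 CPM (log2 fold change -1.26, adjusted p = 0.0027, and 0.0055 with the block). The GABA-synthesizing enzyme Gad1 averaged 613 ± 145 CPM in TRAP and 516 ± 170 in INPUT (SD, n = 4, log2 fold change 0.30, adjusted p = 0.39, and 0.47 with the block). That sign came from VP2.2 alone, where Gad1 differed by 1.66 log2 units against -0.30, -0.03 and -0.12 in the other pools (log2 fold change -0.15 without VP2.2, adjusted p = 0.20, and 0.57 with the block). Summed over Slc32a1, Gad1 and Gad2, GABAergic markers held 918, 1570, 1070 and 1040 CPM in TRAP and 1390, 584, 1210 and 1210 in INPUT, in pool order. TRAP thus held less than INPUT in 3 of 4 pools, although the means were 1150 and 1100 CPM (1010 and 1270 without VP2.2), and TRAP still contained RNA of GABAergic genes. The part of that RNA in the levels of the 8 genes was not tested.

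Pool VP2.2 stood apart. In its INPUT library the GABAergic markers summed to 584 CPM, against 1210 to 1390 CPM in the other INPUT libraries, and the cholinergic markers to 39.4 against 73.7 to 84.1 CPM. The oligodendrocyte markers, by contrast, summed to 2630 CPM there against 1600 to 1690 in the others. Of the 8 genes, 6 had their largest TRAP minus INPUT difference in VP2.2 and the other two in VP1.6. The median difference of the 8 genes was 1.10 log2 units in VP2.2 and 0.49, 0.50 and 0.26 in the other pools, whereas the median over all genes lay between -0.04 and -0.01 in the 4 pools. Its TRAP library went the other way for GABAergic markers, at 1570 CPM against 918 to 1070 in the other TRAP libraries, and for cholinergic markers, at 137 against 87.8 to 98.2. It did not for oligodendrocyte markers, which were also highest there among TRAP libraries (565 against 385 to 514 CPM). Astrocyte markers were at 253 CPM there against 150 to 164. Across genes, the TRAP and INPUT libraries of VP2.2 deviated in opposite directions (correlation -0.661). The high TRAP and low INPUT sums of GABAergic and cholinergic markers are thus not separate observations. Results without VP2.2 therefore stand beside those of all pools for the 8 genes and the lists. List genes and markers reported singly with a log2 fold change have them where the call changed or the value moved over 1.5 times. Most smaller moves are left out. Some list genes and markers not reported singly gained a call without VP2.2, and those in the lists enter the list counts only. Of the other genes tested in the lists below, 30 were called in both fits, and without VP2.2 29 of them still were, while 9 of the 12 called without the block only were then called in neither fit. Without VP2.2 the background was 14.9% of genes higher and 14.3% lower with the block, and 21.9% and 21.6% without it.

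Gphn, Gabrb2 and Gabrb1 were higher in TRAP in both fits, Gabrg3 was higher only in the fit without the block, and Gabrg1, Glra2, Glra3 and Glrb were called in neither. The fit with the block thus called 3 of the 8 genes higher and 0 lower, at a background of 15.4% of all genes called higher and 16.8% lower (32.2% in all). Without the block 4 were called higher and 0 lower, at a background of 23.2% higher and 24.8% lower (47.9% in all). Without VP2.2, 2 of the 8 were called with the block (Gphn and Gabrb2) and 3 without it (Gabrb1 as well), all higher, where 29.17% and 43.53% of all genes were called. Log2 fold changes had a median of 0.48 over the 8 genes and of -0.05 over all genes tested, and of 0.19 and -0.06 without VP2.2. In 4 of the 8 genes every TRAP library lay above every INPUT library (Gphn, Gabrb2, Gabrb1 and Gabrg3). This was so for 23.3% of all genes tested, while 24.4%, and 0 of the 8 genes, had every TRAP library below every INPUT library. TRAP and INPUT values of a gene opposed each other over the 4 pools (median correlation -0.854 over all genes, -0.996 to -0.159 in the 8). The lack of overlap is therefore not separate from the differences by pool.

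**Figure D1:**
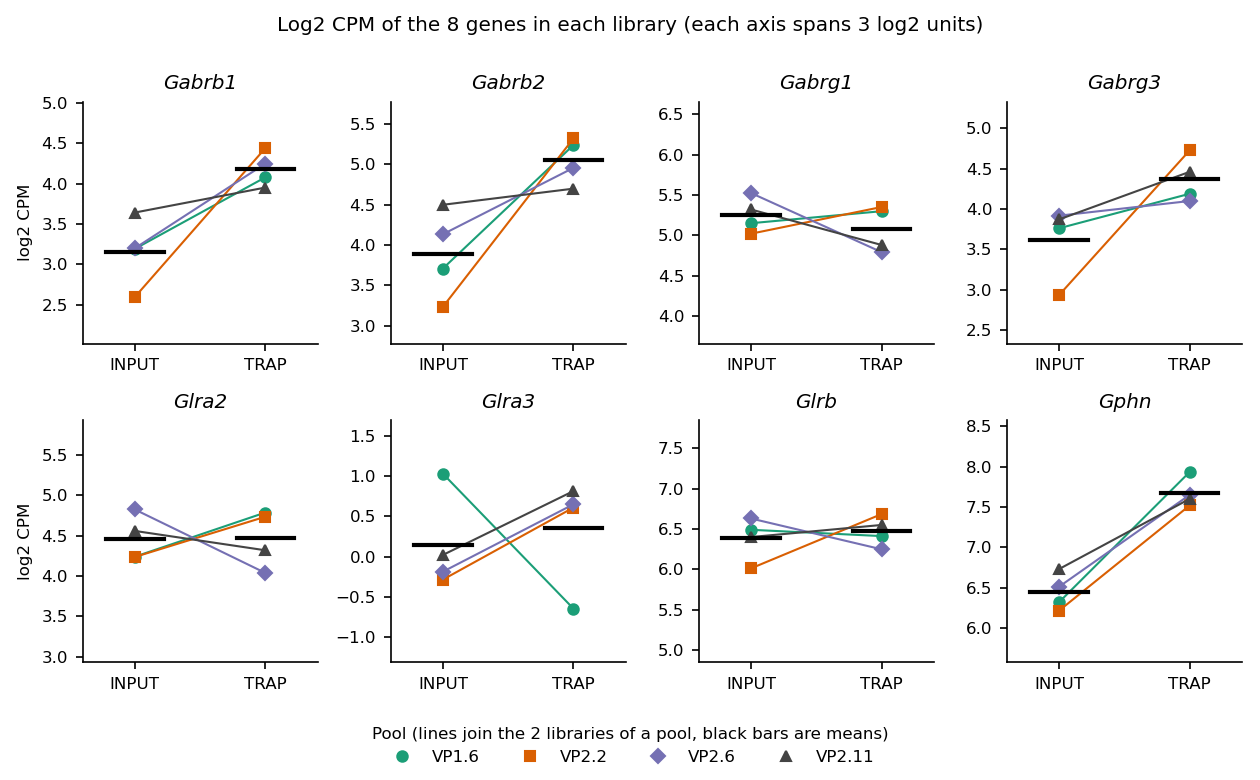
Log2 CPM (y axis, spanning 3 log2 units in each panel) of the 8 genes in the INPUT and TRAP library of each pool, with lines joining the libraries of a pool and black bars at the mean of 4. The TRAP points of Gabrb1, Gabrb2, Gabrg3 and Gphn all lie above the INPUT points, the lines of Gabrg1, Glra2 and Glrb cross, and Glra3 falls in VP1.6 alone.

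Among the β subunits, Gabrb2 (chromosome 11, 42419757 to 42629028, plus strand, GRCm38) had TRAP values of 37.8, 40.0, 31.1 and 26.0 CPM in pool order. The INPUT values were 13.1, 9.41, 17.6 and 22.6 CPM. The fractions did not overlap, but the lowest TRAP library and the highest INPUT library both came from VP2.11 and differed by only 0.20 log2 units, against 2.09 in VP2.2. The means were 33.7 ± 6.41 CPM in TRAP and 15.7 ± 5.71 in INPUT (SD, n = 4), a 2.24-fold difference with a 95% interval of 1.44 to 3.48 in the fit with the block. The log2 fold change of 1.16 (SE 0.26, and 0.30 with the block) had a limma adjusted p of 0.0046, and 0.0090 with the block, and it exceeded that of 92.7% of genes tested. Without VP2.2 the log2 fold change was 0.85 (adjusted p = 0.021, and 0.040 with the block).

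Gabrb1 (chromosome 5, 71658113 to 72149037, plus strand) was measured at 16.9, 21.7, 18.98 and 15.5 CPM in the TRAP libraries, in pool order. Its INPUT values were 9.13, 6.03, 9.17 and 12.5 CPM. TRAP exceeded INPUT in every pool, by 1.85 log2 units in VP2.2 and by 0.31 in VP2.11, the same pools that gave the extremes for Gabrb2. At 18.2 ± 2.71 against 9.20 ± 2.63 CPM (SD, n = 4), Gabrb1 was 2.03-fold higher in TRAP (95% interval 1.31 to 3.17 with the block). Its log2 fold change of 1.02 (SE 0.23, and 0.30 with the block) had an adjusted p of 0.0041 in limma, and 0.018 with the block. In the fit with the block the call was lost without VP2.2 (log2 fold change 0.75, adjusted p = 0.069, and 0.015 without the block) and without VP2.6 (1.02, adjusted p = 0.060). Gabrb1 has 13838 bases of exon, the most of the 8 genes, and fold changes rose with exon length over all genes (Spearman's rho was 0.41 over 14245 genes that are not independent of each other). With that trend taken out, its log2 fold change was 0.47 (adjusted p = 0.050, and 0.17 with the block).

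No difference in the balance of the β subunits passed the test. The log2 ratio of Gabrb2 to Gabrb1 within a library was 0.88 ± 0.20 in TRAP and 0.74 ± 0.19 in INPUT (SD, n = 4), and the difference of 0.14 ± 0.39 over pools was positive in 2 of 4 pools (exact two-sided permutation p = 0.34).

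Of the γ subunits, Gabrg3 (chromosome 7, 56716465 to 57387188, minus strand) gave 18.2, 26.5, 17.1 and 22.01 CPM in TRAP, in pool order. INPUT gave 13.6, 7.64, 15.1 and 14.6 CPM. The INPUT library of VP2.2 lay far below the other INPUT libraries, while TRAP was the higher fraction in all 4 pools. The means of 21.0 ± 4.24 and 12.7 ± 3.45 CPM (SD, n = 4) differed 1.68-fold, and the log2 fold change of 0.75 (SE 0.24, and 0.30 with the block) passed the threshold in limma without the block (adjusted p = 0.026) and not with it (adjusted p = 0.068). Without VP2.2 it was 0.40 (adjusted p = 0.071, and 0.26 with the block). The length trend also bore on this gene, whose log2 fold change with the trend taken out was 0.24 (adjusted p = 0.28, and 0.47 with the block).

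Gabrg1 (chromosome 5, 70751047 to 70842617, minus strand) was the more abundant of the γ subunits described, also per exon length. In pool order, TRAP held 39.4, 40.8, 27.7 and 29.5 CPM and INPUT 35.5, 32.5, 46.0 and 40.0 CPM. TRAP was the higher fraction in VP1.6 and VP2.2 and the lower in VP2.6 and VP2.11. With means of 34.3 ± 6.72 and 38.5 ± 5.89 CPM (SD, n = 4), the log2 fold change was -0.17 (SE 0.18, and 0.25 with the block, adjusted p = 0.43 and 0.62), and its 95% interval with the block ran from -0.70 to 0.35. Without VP2.2 it was -0.34 (adjusted p = 0.14, and 0.29 with the block). Only with the length trend taken out and without the block was Gabrg1 called, at a log2 fold change of -0.52 (adjusted p = 0.011).

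The balance of the γ subunits was lower in TRAP in every pool, but the difference did not pass once adjusted. Within a library, Gabrg1 exceeded Gabrg3 by 0.71 ± 0.29 log2 units of CPM in TRAP and by 1.63 ± 0.32 in INPUT (SD, n = 4). The ratio was lower in TRAP in 4 of 4 pools, by -0.28, -1.46, -0.92 and -1.03 in pool order, a mean of -0.92 ± 0.49. The exact two-sided permutation test gave p = 0.029, the smallest that 4 against 4 libraries allow, and 0.087 after Benjamini-Hochberg adjustment over the 3 ratios tested. With 1 ratio alone at that smallest p, the adjusted value could not fall under 0.05. This test also left out the pairing of libraries. Permuting within pools gave an exact p of 0.125, the smallest this test can give with 4 pairs, so it could not place the ratio under 0.05.

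**Figure D2:**
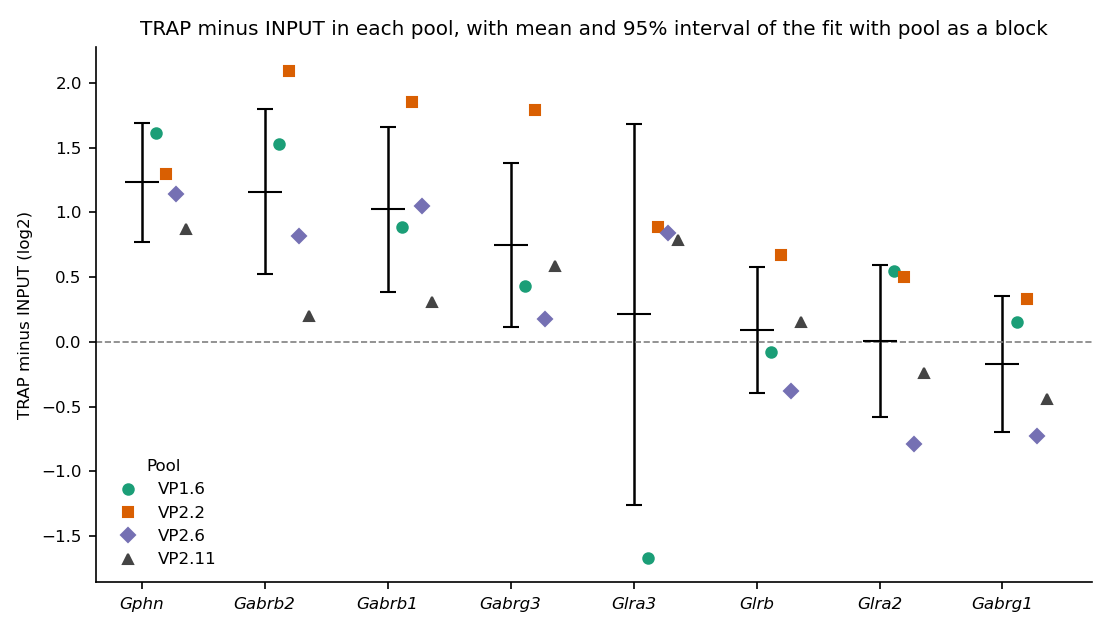
TRAP minus INPUT in log2 units (y axis) for each gene, with 1 point per pool and the mean and 95% interval of the blocked fit. All 4 pools are above 0 for Gphn, Gabrb2, Gabrb1 and Gabrg3, and the intervals of Glra3, Glrb, Glra2 and Gabrg1 include 0.

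The glycine receptor genes showed no difference between fractions that passed the test. Glra2 (X chromosome, 165129017 to 165327393, minus strand) was at 27.6, 26.6, 16.4 and 20.0 CPM in TRAP, in pool order, and at 18.9, 18.9, 28.4 and 23.6 CPM in INPUT. The pools split, with TRAP above INPUT in VP1.6 and VP2.2 and below it in VP2.6 and VP2.11, as for Gabrg1. The means were 22.7 ± 5.37 and 22.4 ± 4.54 CPM (SD, n = 4). Its log2 fold change of 0.0050 (SE 0.21, and 0.28 with the block, adjusted p = 0.99 in both fits) had a 95% interval with the block of -0.58 to 0.59, so a change of up to about 1.5-fold in either direction (0.667 to 1.51) was within the error. Without VP2.2 it was -0.16 (adjusted p = 0.60 and 0.70).

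Glrb (chromosome 3, 80843599 to 80913660, minus strand), the subunit that binds gephyrin, was the most abundant of the 7 receptor genes, also per exon length. It reached 85.2, 103, 76.02 and 93.7 CPM in TRAP and 89.9, 64.6, 99.0 and 84.5 CPM in INPUT, in pool order. TRAP exceeded INPUT in VP2.2 and VP2.11 only. The means of 89.4 ± 11.5 and 84.5 ± 14.6 CPM (SD, n = 4) gave a log2 fold change of 0.09 (SE 0.16, and 0.23 with the block, adjusted p = 0.66 and 0.79) with a 95% interval from -0.40 to 0.58, and without VP2.2 one of -0.10 (adjusted p = 0.50 and 0.71).

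Glra3 (chromosome 8, 55940460 to 56130070, plus strand) was close to the lower limit of the table. TRAP values were 0.640, 1.53, 1.57 and 1.76 CPM and INPUT values 2.04, 0.822, 0.880 and 1.02 CPM, in pool order. TRAP was the higher fraction in 3 pools by 0.79 to 0.89 log2 units and the lower in VP1.6 by -1.67. The log2 fold change was 0.21 (SE 0.47, and 0.69 with the block, adjusted p = 0.73 and 0.84), and the 95% interval with the block from -1.26 to 1.68 covers folds from 0.418 to 3.21. Whole reads could be recovered for VP2.2 and VP2.6, where Glra3 rested on 17 and 26 reads in TRAP and on 28 and 29 reads in INPUT. A difference of the size seen for Gabrb2 (1.16) lies within that interval. Without VP1.6, a pool whose depth is unknown, the log2 fold change of Glra3 was 0.84 (adjusted p = 0.13, and 0.47 with the block), and without VP2.2 it was -0.015 (adjusted p = 0.98 and 0.99). The log2 ratio of Glra2 to Glra3 was 4.11 ± 0.94 in TRAP and 4.32 ± 0.77 in INPUT (SD, n = 4, exact permutation p = 0.77).

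The other genes stood on more reads. In VP2.2, Gabrb2 had 664 reads in TRAP and 472 in INPUT, Gabrb1 358 and 301, Gabrg1 738 and 1775, and Glra2 323 and 692. The effective library sizes there were 12.7 and 38.5 M reads, so a gene with more reads in INPUT can still be at a higher CPM in TRAP. In VP2.6, with 12.8 and 25.3 M reads, Gabrb2 had 440 and 494 reads, Gabrb1 248 and 238, Gabrg3 182 and 319, Gabrg1 308 and 1018, and Glra2 215 and 738. The depth of VP1.6 and VP2.11 is unknown, because reads were recovered from both libraries of a pool together, and the INPUT values of VP1.6 and both sets of VP2.11 were rounded to 3 significant digits.

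Gphn (chromosome 12, 78226379 to 78684772, plus strand) showed the largest difference and the smallest spread of the genes that were higher. It was at 245, 183, 201 and 194 CPM in TRAP, in pool order, and at 79.9, 74.3, 91.2 and 106 CPM in INPUT. The highest INPUT library stayed well below the lowest TRAP library, and the differences of 1.61, 1.30, 1.14 and 0.87 log2 units lay close together. At means of 206 ± 26.9 and 87.9 ± 14.1 CPM (SD, n = 4), Gphn was 2.35-fold higher in TRAP (95% interval 1.71 to 3.23 with the block). The log2 fold change of 1.23 (SE 0.15, and 0.21 with the block) had a limma adjusted p of 0.00020, and 0.00078 with the block, above that of 93.9% of genes tested. Without VP2.2 it was 1.21 (adjusted p = 0.00069, and 0.0013 with the block). Glrb, the subunit through which glycine receptors bind gephyrin, had a log2 fold change of 0.09, and the difference between these fold changes was not tested.

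Promoter windows of Gabrb2, Gabrb1 and Gphn are shown because these are the genes called in both fits. Windows of 200 bases (170 before and 30 after the start, RefSeq, GRCm38.p6, printed 5′ to 3′) were taken at 11 start sites of the 8 genes. They were searched for the NRF1 motif GCGCATGCGC, which reads the same on both strands, for the GC box GGGCGG on both strands (CCGCCC on the other), and for the TATA box TATAAA on the sense strand. A match is printed in capitals. The NRF1 letters were in 1 of the 11 windows (0.804% of 32817 windows of all genes), the TATA box in 1 (5.78% of all) and the GC box in 5 (31.96% of all).
Gabrb2, chr11:42420270-42420469, plus strand, capitals mark the TATA box: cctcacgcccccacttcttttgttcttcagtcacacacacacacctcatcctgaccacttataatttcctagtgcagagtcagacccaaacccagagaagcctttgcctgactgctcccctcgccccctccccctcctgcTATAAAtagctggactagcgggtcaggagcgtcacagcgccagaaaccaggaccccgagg
Gabrb1, chr5:71699762-71699961, plus strand, capitals mark the NRF1 letters: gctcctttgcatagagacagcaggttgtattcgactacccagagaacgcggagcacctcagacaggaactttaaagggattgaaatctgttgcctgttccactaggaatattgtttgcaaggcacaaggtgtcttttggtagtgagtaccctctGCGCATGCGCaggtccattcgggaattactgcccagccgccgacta
Gphn, chr12:78226485-78226684, plus strand, capitals mark the GC box: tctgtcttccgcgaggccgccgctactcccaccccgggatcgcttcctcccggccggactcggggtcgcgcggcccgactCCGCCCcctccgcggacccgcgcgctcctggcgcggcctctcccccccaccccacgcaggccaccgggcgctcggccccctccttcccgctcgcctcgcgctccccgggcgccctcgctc
The windows of these genes shared none of the motifs with each other, and the NRF1 letters of Gabrb1 and the TATA box of Gabrb2 each lay at only 1 of the start sites listed for the gene. The remaining GC boxes were in the windows of Glrb, Gabrg3, Glra3 and Glra2, and the window of Gabrg1 held no match.

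Levels of different genes were compared per kilobase (kb) of merged exon, in CPM per kb. In TRAP the order was Gphn (54.9 ± 7.18), Glrb (19.2 ± 2.47), Glra2 (7.20 ± 1.71), Gabrb2 (5.30 ± 1.01), Gabrg1 (4.36 ± 0.85), Gabrg3 (1.76 ± 0.36), Gabrb1 (1.32 ± 0.20) and Glra3 (0.149 ± 0.054) (SD, n = 4). Each gene exceeded the next in all 4 TRAP libraries, but the steps from Glra2 to Gabrb2 (0.43 ± 0.24 log2 units), from Gabrb2 to Gabrg1 (0.28 ± 0.14) and from Gabrg3 to Gabrb1 (0.40 ± 0.28) were the smallest, where the SD of a single gene's log2 level over the TRAP libraries was 0.21 to 0.36 for these 5 genes. INPUT gave a similar order with Gabrg1 and Gabrb2 exchanged, at 4.89 ± 0.75 and 2.46 ± 0.90 CPM per kb. Gphn exceeded Glrb by 1.51 ± 0.32 log2 units in TRAP and by 0.37 ± 0.24 in INPUT. The length chosen matters for these orders. Per kb of the longest transcript, Gabrb2 (8.46 ± 1.61) stood above Glra2 and Gabrg1 (both 7.20) in TRAP, and Glrb (27.9 ± 4.81) above Gphn (24.6 ± 3.94) in INPUT, where Glrb was the higher in 3 of 4 libraries. By the same length, Gabrg1 (8.065 ± 1.23) stood above Glra2 (7.12 ± 1.44) in all 4 INPUT libraries.

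**Figure D3:**
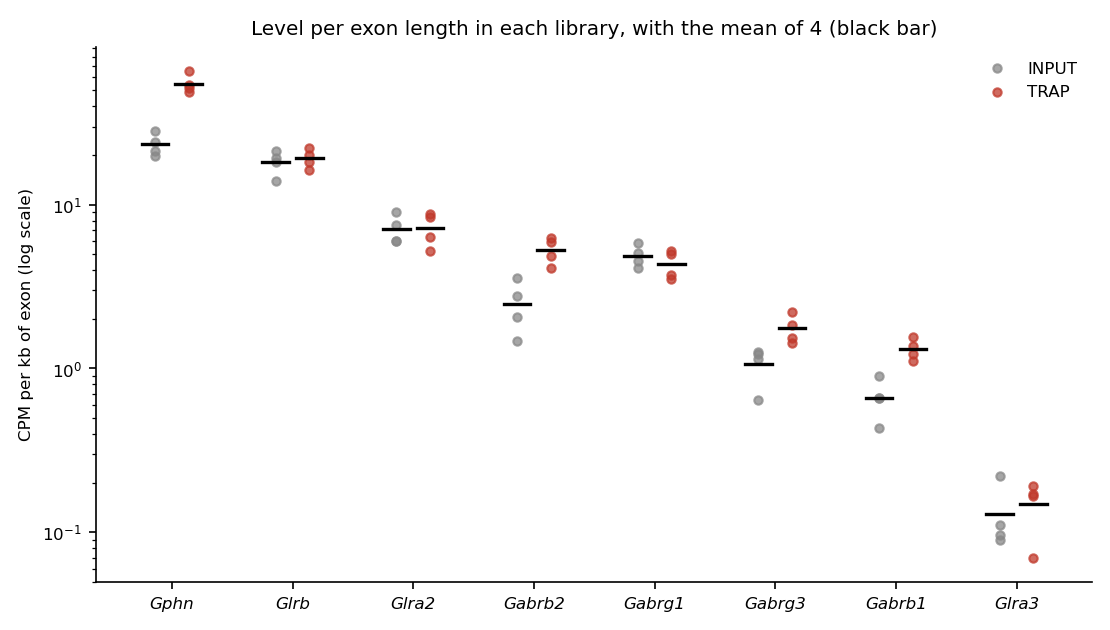
Level in CPM per kb of exon (y axis, log scale) of each gene in the 4 INPUT (grey) and 4 TRAP (red) libraries, with black bars at the mean. Gphn is the highest and Glra3 the lowest in both fractions, and TRAP lies above INPUT without overlap for Gphn, Gabrb2, Gabrg3 and Gabrb1.

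GABA-A subunit genes lie in clusters, and the fold changes of neighbours are given here side by side, without a test between them. In the chromosome 5 cluster the log2 fold changes were -0.17 for Gabrg1, 0.75 for Gabra2 (limma adjusted p = 0.036, and 0.065 with the block, but 0.36 without VP2.2, adjusted p = 0.12 and 0.27), -0.38 for Gabra4 (0.11 and 0.24) and 1.02 for Gabrb1. Gabra4 (71569749 to 71658308, minus strand) and Gabrb1 overlap head to head at their 5′ ends, and whether reads were counted by strand is not given in the sources used here. On chromosome 7, Gabrg3 (0.75) lies beside Gabra5, which differed by -0.30 (adjusted p = 0.11, and 0.35 with the block). Without VP2.2 Gabra5 was at -0.45 and was called without the block only (adjusted p = 0.021 and 0.14). The X chromosome cluster holds none of the 8 genes, and both of its tested neighbours were above 0, Gabra3 at 0.71 and Gabrq at 1.79.

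**Figure D4:**
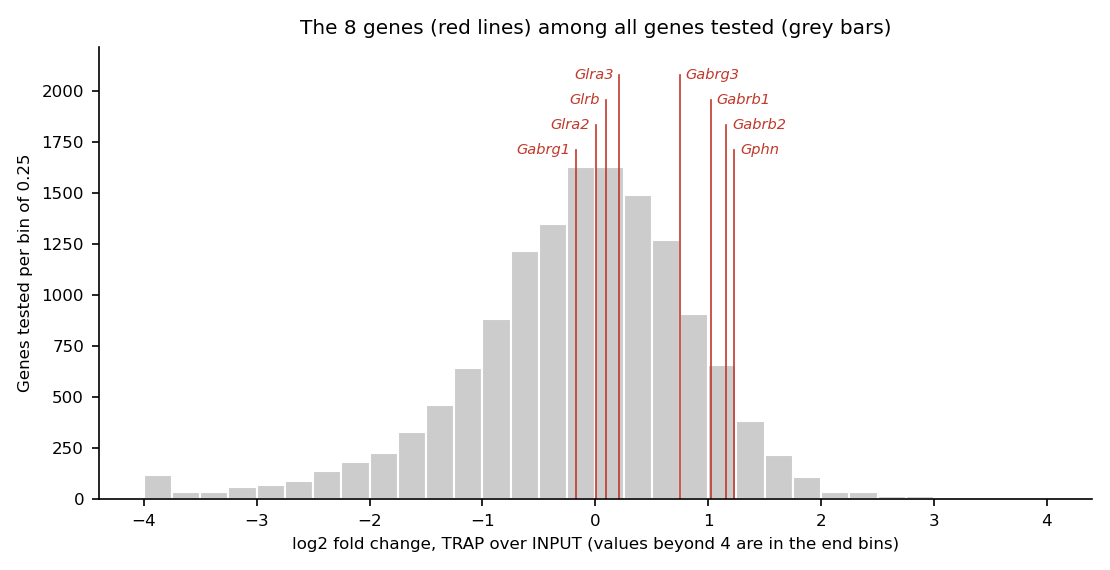
Number of genes tested (y axis) by log2 fold change of TRAP over INPUT (x axis, bins of 0.25), with red lines at the 8 genes. Gabrg3, Gabrb1, Gabrb2 and Gphn lie on the upper side at 0.75 to 1.23, and the other four lie between -0.17 and 0.21 around the median of all genes.

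Of the further GABA-A subunit genes described here, 6 were tested. In the fit with the block 1 was higher and 0 lower, and without it 3 and 0, with a median of 0.21 on the log2 scale. Without VP2.2 the median was -0.010, and 1 was higher and 0 lower with the block, 1 and 1 without it. The largest was Gabrq, the θ subunit, at 18.9 ± 5.77 against 6.08 ± 3.21 CPM (log2 fold change 1.79, limma adjusted p = 0.0050, and 0.0044 with the block). Its differences by pool were 1.64, 3.66, 1.23 and 0.62 log2 units, and without VP2.2 it was at 1.16 (adjusted p = 0.0074, and 0.018 with the block). Gabra3 was called without the block only (log2 fold change 0.71, adjusted p = 0.027 and 0.056) and in neither fit without VP2.2 (0.37, adjusted p = 0.056 and 0.19), and Gabrd, the δ subunit of receptors outside synapses, in neither (-0.28, adjusted p = 0.14 and 0.43).

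Among 11 organisers of the inhibitory postsynapse, 1 was higher and 1 lower with the block, and 3 and 2 without it, with a median of 0.18. Without VP2.2 there were 1 higher and 2 lower in both fits, and the median was 0.086. Dag1, which encodes dystroglycan, was higher in TRAP (25.1 ± 11.7 against 12.2 ± 1.52 CPM, log2 fold change 0.95, limma adjusted p = 0.012, and 0.020 with the block). Its TRAP library of VP2.11 held 42.5 CPM against 17.4 to 20.8 in the others. The differences of Dag1 were 0.92, 0.79, 0.28 and 1.83 log2 units in pool order. Insyn1, an inhibitory synaptic factor, was lower (0.651 ± 0.481 against 2.19 ± 0.361 CPM, log2 fold change -2.14, adjusted p = 0.017, and 0.043 with the block), a call that ended without VP2.2 (-2.29, adjusted p = 0.053 and 0.086). Its TRAP values were 0.514, 0.668, 1.29 and 0.133 CPM in pool order. Insyn1 thus passed the filter on low values through its INPUT libraries, and the size of its fold change rests on TRAP values near the lower limit. The adhesion protein Nlgn2 was not called, at a log2 fold change of 0.35 (adjusted p = 0.066, and 0.25 with the block), or 0.23 without VP2.2 (0.18 and 0.41).

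Genes of receptor assembly and trafficking (15 tested) gave 4 higher and 1 lower with the block, 5 and 2 without it, and a median of 0.26. Without VP2.2 these were 4 and 2 with the block, 4 and 4 without it, and a median of 0.12. Those higher in both fits were Nsf, an ATPase of membrane fusion, the kinesin motors Kif5b and Kif5c, and Ubqln1, a ubiquitin-like protein, with log2 fold changes of 1.62, 1.19, 1.02 and 0.92 (limma adjusted p with the block of 0.00074, 0.0047, 0.0079 and 0.0045). The kinesins differed most in VP2.2, by 2.34 log2 units for Kif5b against 0.55 to 1.15 in the other pools and by 2.05 for Kif5c against 0.58 to 0.81. Without VP2.2 they were at 0.81 and 0.68 (adjusted p with the block of 0.0084 and 0.013). Gabarap, the GABA-A receptor-associated protein that binds γ subunits, was lower in TRAP, at 210 ± 26.1 against 448 ± 154 CPM (log2 fold change -1.05, adjusted p = 0.0024, and 0.0050 with the block).

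Of 10 tested genes for gephyrin partners and molybdenum cofactor synthesis, 0 were higher in either fit and 2 were lower with the block (3 without it), with a median of -0.29. Without VP2.2 the counts were the same and the median was -0.13. Dynll2, a dynein light chain that binds gephyrin, differed by -1.01 on the log2 scale (limma adjusted p = 0.00044, and 0.0029 with the block). Pfn1, the actin-binding profilin, had one of -0.98 (adjusted p = 0.0046, and 0.013 with the block). The cofactor synthesis genes Mocs1, Mocs2 and Mocs3 had log2 fold changes of 0.76, -0.45 and 0.49, of which only that of Mocs2 was called, and only without the block (adjusted p = 0.024 and 0.12). Without VP2.2 they were at 0.31, -0.30 and 0.59, with Mocs2 again called without the block only (adjusted p = 0.043 and 0.22).

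Of 5 tested genes for glycine transport and breakdown, 1 was higher and 1 lower with the block (1 and 2 without it), with a median of -0.79. Without VP2.2, 1 was higher and 1 lower in both fits, and the median was -0.73. Dld, a subunit shared by several mitochondrial dehydrogenase complexes besides the glycine cleavage system, was higher (470 ± 60.2 against 213 ± 37.3 CPM, log2 fold change 1.15, limma adjusted p = 0.00035, and 0.0016 with the block). Gcsh, the protein that carries the aminomethyl group in glycine cleavage, was lower (19.4 ± 5.84 against 37.2 ± 7.11 CPM, log2 fold change -0.97, adjusted p = 0.0056, and 0.015 with the block). Slc6a9, the glycine transporter GlyT1 found mostly on astrocytes, differed by -0.80 on the log2 scale (adjusted p = 0.026, and 0.11 with the block), and without VP2.2 by -0.73 (adjusted p = 0.10 and 0.21).

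**Figure D5:**
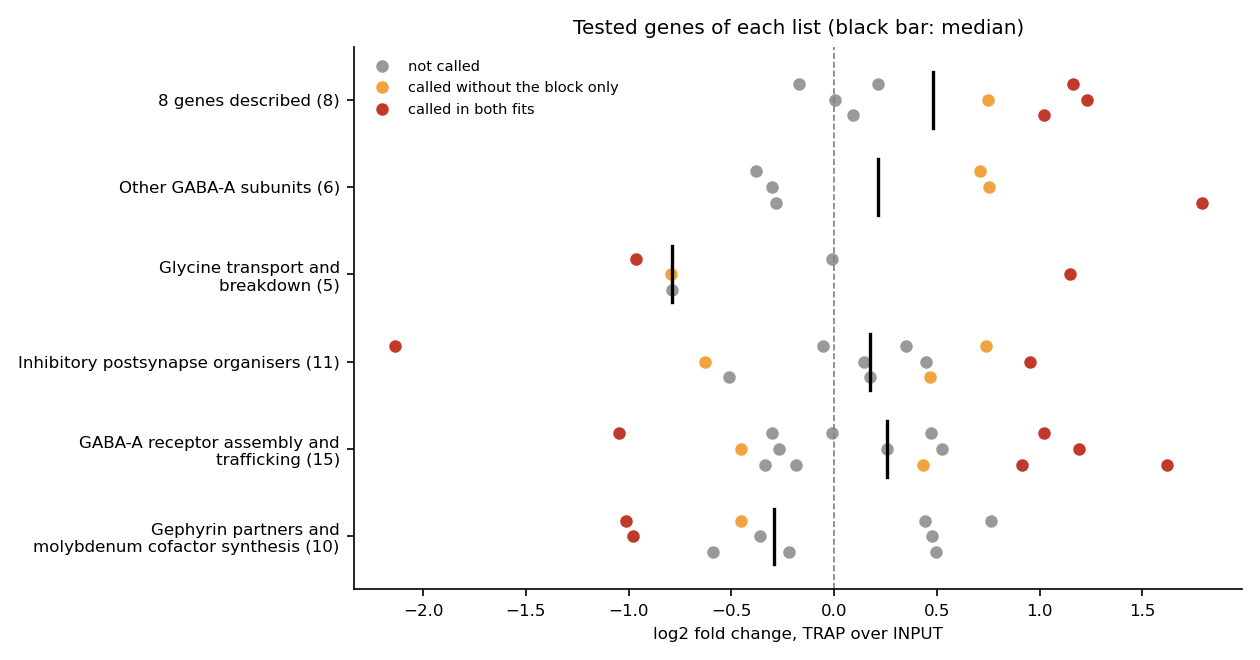
Log2 fold change of TRAP over INPUT (x axis) for the 8 genes and for the tested genes of each related list (rows, number tested in brackets), coloured by whether a gene was called in both fits, without the block only, or in neither, with black bars at the medians. The lists hold calls on both sides of 0 except for the other GABA-A subunits and the 8 genes (above 0) and the gephyrin partners (below 0).

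Markers of other cells moved with the fractions as well. Astrocyte markers summed to 179 CPM in TRAP and 424 in INPUT, with 4 of 5 lower in both fits. The most abundant in both fractions was Slc1a3 (log2 fold change -1.12, limma adjusted p = 0.0015, and 0.0035 with the block). Oligodendrocyte markers summed to 486 and 1890 CPM, with 3 of 4 lower in both fits. The most abundant was Mbp (-2.23, adjusted p = 9.3e-05, and 2.5e-05 with the block). Mag, a myelin glycoprotein gene, went the other way, at 105 ± 19.7 against 69.7 ± 17.2 CPM (log2 fold change 0.61, adjusted p = 0.035, and 0.072 with the block), and was called in neither fit without VP2.2 (0.36, adjusted p = 0.11 and 0.21). Microglial markers summed to 13.6 and 82.9 CPM, with 4 of 5 lower with the block and 5 without it (4 in both fits without VP2.2). The most abundant were C1qb in INPUT (-3.01, adjusted p = 0.00018, and 6.4e-05 with the block) and Cx3cr1 in TRAP (6.17 CPM). Tmem119, a microglial marker, was near 0 in TRAP at 0.171 CPM. Cholinergic markers summed to 104 and 69.0 CPM, and Chat differed by 0.70 on the log2 scale (adjusted p = 0.034, and 0.066 with the block), but by 0.39 without VP2.2 (adjusted p = 0.15 and 0.24). Slc18a3, the vesicular acetylcholine transporter, was lower in TRAP, at 2.37 ± 1.96 against 6.62 ± 1.61 CPM (log2 fold change -1.75, adjusted p = 0.0086, and 0.013 with the block). Oligodendrocyte precursor markers summed to 36.7 and 30.9 CPM, but to 33.1 and 33.4 without VP2.2, with Cspg4 higher in TRAP (1.98, adjusted p = 0.0014, and 0.00088 with the block) and Gpr17 lower (-1.01). Pdgfra, the third, differed by -0.28 (adjusted p = 0.57, and 0.63 with the block), and without VP2.2 by -0.88 (adjusted p = 0.023 and 0.068). The 3 endothelial markers with values summed to 17.4 and 6.12 CPM, and reached 37.5 CPM in the TRAP library of VP2.11 against 9.68 to 12.6 in the others. Only 1 of the 3, Flt1, was called, and it was higher (2.37, limma adjusted p = 0.0080, and 0.0047 with the block). Its differences were 3.65, 1.08, 0.93 and 3.81 log2 units in pool order. Whether cells other than VPGlu neurons contributed to the fold changes of the receptor and gephyrin genes was not tested.

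The genes whose log2 CPM followed each gene most closely over the 8 libraries were found by Pearson's r, as a description, since the libraries share pools and 14249 genes were searched. For Gphn these were Sybu (0.998), Elp2 (0.997) and Ubfd1 (0.997), for Gabrb1 Nbas (0.999), Dscam (0.999) and Bbs7 (0.998), for Gabrb2 Klhl28 (0.998), Cnot10 (0.995) and Cdkl2 (0.994), and for Gabrg3 Sema6a (0.997), 4932438A13Rik (0.997) and Reep1 (0.996). Their own log2 fold changes ran from 0.49 (Reep1) to 1.32 (Elp2). The closest to Gabrg1 were Lrtm2 (0.990), Pptc7 (0.975) and Zfp597 (0.974), to Glra2 Efcc1 (0.987), Tm9sf1 (0.980) and Sugct (0.976), to Glrb Camsap2 (0.989), Nr3c1 (0.987) and B3galt5 (0.986), and to Glra3 Lama1 (0.997), Sned1 (0.990) and Vasn (0.988). None of the 8 genes was among the 3 nearest of another.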

How the data were processed

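RNA from TRAP and INPUT of 4 pools was sequenced (8 libraries). Per the methods, the authors aligned reads with STAR (2.5.1a in the submitters' processing notes), counted unique reads per gene with featureCounts, scaled by TMM in edgeR and fitted limma with voom and quality weights. The values the authors deposited and used here are log2 CPM. The authors' own comparison columns, which the authors deposited beside them, hold log2 fold changes, p-values and score values (limma's moderated statistic, log odds and a signed linear fold change), and were not used. The table held 14398 entries, and 45 repeats of a gene were dropped. Whether a pool term was taken out of the deposited values is not given in the sources used here.

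TRAP was compared with INPUT by limma 3.58.1 in R 4.3.3 (lmFit, eBayes with a trend) over genes above 1 CPM in at least 3 libraries, with Benjamini-Hochberg adjustment and a threshold of 0.05. The fit had the fraction alone, and a fit with the pool added as a block stands beside it. The pairing comes from the labels and methods, by which both libraries of a pool share 1 homogenate. Both fits and the read recovery were tested on simulated data. Positions and exon lengths came from GENCODE M21 (GRCm38).

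Whole reads were recovered from differences between libraries of a pool in VP2.2 (100.0% of 641 low genes whole within 2e-08 log2 units) and VP2.6 (99.9% of 782). Recovered reads and deposited levels differ by a shift per gene common to both libraries of a pool. As only 2 of 4 pools and the lower genes gave reads, no count test was run.

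The genes and lists were chosen with earlier results of these data known. Named are all 8 genes, in each list those called in both fits (up to 4 per direction by size), GABA-A neighbours with gaps under 2 Mb, Slc17a6, Slc32a1, the top marker per cell type, and the 3 nearest genes by Pearson's r. Gabrd, Gabra3, Nlgn2, Mocs1 to Mocs3, Slc6a9, Slc18a3, Mag, Pdgfra, Tmem119 and Gpr17 were named after their values were seen. Further genes of these families and lists are not reported here, and list counts leave them out. Alternatives were library weights, filters, a pseudocount, centring, quantile normalization, no trend, a length trend and leaving out each pool.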

Additional observations from a re-analysis of the deposited data

Results flagged for a closer look

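In groups of 4 libraries, 1 library of a gene named here stood far from the other three in 12 of 138 groups (69 genes, gap over range above 0.829). Chance gives about 1 in 20 groups, or 6.9, if groups were independent, which they are not, since libraries of a pool oppose each other and 24 of the genes were picked for following one of the 8. The INPUT library of VP2.2 was low in 5 of them. It held 2.93 log2 CPM of Gabrg3 against 3.76 to 3.92 in the other INPUT libraries, 8.04 of Gad1 against 9.18 to 9.30, and 6.58 of Kif5c against 7.56 to 7.69. Genes picked for following Gabrg3 did the same, 4932438A13Rik at 3.46 against 4.57 to 4.63 and Reep1 at 4.97 against 5.51 to 5.59. Gabrq was high in the TRAP library of VP2.2, at 4.78 log2 CPM against 3.92 to 4.05.

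The TRAP library of VP1.6 was low in Glra3, at -0.64 log2 CPM against 0.61 to 0.82 in the other TRAP libraries. The genes picked for following Glra3 were low there as well, Lama1 at -2.32 against 0.47 to 0.86, Sned1 at -0.40 against 0.90 to 1.06 and Vasn at -1.27 against 0.74 to 1.13. It was also low in C1qb, at 0.84 against 2.23 to 2.43. The TRAP library of VP2.11 was low in Mbp, a myelin gene, at 7.87 against 8.47 to 8.59.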

How the results depend on the processing

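Gphn and Gabrb2 kept their direction and call under all 19 alternatives (log2 fold change 1.09 to 1.35 and 0.85 to 1.48). Gabrb1 kept its direction under 19 and lost its call under 4 (0.47 to 1.26), and Gabrg3 lost it under 12 of 19 (0.24 to 0.94). Gabrg3 was not called with library weights (0.40, adjusted p = 0.051 in limma, and 0.48, adjusted p = 0.13, with the pool as a block), nor without VP1.6 (0.86, adjusted p = 0.065, and 0.10 with the block) or VP2.11 (0.80, adjusted p = 0.057 and 0.097), where its log2 fold change was no smaller than the 0.75 of all pools. With all 4 pools and no other change, the block changed only the call of Gabrg3 among the 8 genes. Combined with other settings it also ended that of Gabrb1 without VP2.2 or VP2.6, of Gabrg3 without VP2.6, and of Gabrg1 with the length trend out (adjusted p = 0.011, and 0.065 with the block). The count of the 8 genes called was 2 with the length trend out and the block (31.97% of all genes were called there), and 2 to 4 on leaving out a pool (22.68% to 48.38% of all genes). Genes called numbered 3528 past a log2 size of 1 and 3232 to 6894 on leaving out a pool, in fits with and without the block. Related genes called numbered 21, and 12 with the block, where 47.93% and 32.23% of all genes were called. They numbered 27 with library weights and no block and 28 after quantile normalization (60.67% and 49.24% of all genes). Lower counts were 8 past a log2 size of 1, and 9 to 18 on leaving out a pool. The lowest on leaving out a pool, 9, came without VP1.6 with the block, which without the block gave 12.

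The genes near 0 changed sign. Gabrg1 ranged from -0.34 to 0.013 on leaving out a pool. Glra2 gave -0.20 with library weights (-0.14 with the block), -0.0085 after quantile normalization, and -0.18 to 0.27 on leaving out a pool. Glra3 gave 1.23 (adjusted p = 0.057) after quantile normalization, -0.015 with library weights and the block, -0.20 with the length trend out, with or without the block, and -0.015 to 0.84 on leaving out a pool. Glrb gave -0.15 with library weights (-0.10 with the block), -0.068 after quantile normalization, -0.017 with the length trend out, with or without the block, and -0.10 to 0.25 on leaving out a pool. On leaving out a pool the ratio of Gabrb2 to Gabrb1 ranged from -0.031 to 0.26, that of Glra2 to Glra3 from -1.02 to 0.27, and that of Gabrg1 to Gabrg3 from -1.14 to -0.74. With the pools paired as a block, that of Gabrg1 to Gabrg3 kept its -0.92 at an exact p of 0.125. The causes were not tested. Among levels per length in TRAP, 5 of the 8 moved by more than 1 SD with the longest transcript. In INPUT, Gabrg3 (1.07 to 1.30 CPM per kb, SD 0.29) and Glra3 (0.129 to 0.183, SD 0.062) moved by less than 1 SD. Of the genes with recovered reads, Glra3 had the fewest (17 to 29), and no library size is known for 2 of the 4 pools.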
